A study of Mus musculus with 10 samples.

Results

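The genes described here were 7 X-linked genes for proteins that bind, splice, export or degrade RNA: Nono, Rbmx, Hnrnph2, Rbm10, Thoc2, Upf3b and Rbm3. They were taken by name from the deposited gene tables, which listed 24386 genes, 1028 of them on the X chromosome. Of the 7 genes, 6 had reads, and 5 reached 10 allele-assigned reads in each library.

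These proteins act at successive steps in the life of an RNA. NONO is a core protein of paraspeckles that works as a dimer with related proteins in transcription, splicing and DNA repair. RBMX (hnRNP G), HNRNPH2 and RBM10 bind pre-mRNA and influence exon choice, HNRNPH2 through runs of G. THOC2 is the scaffold of the THO complex, which couples transcription to mRNA export, UPF3B links the exon junction complex to nonsense-mediated decay, and RBM3 is an RNA chaperone induced by mild cold. In female mammals one X chromosome is silenced by Xist, a long noncoding RNA that coats the chromosome from which it is made, so most X-linked genes of this kind end up transcribed from a single allele.

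Newly made RNA was measured by TT-seq (transient transcriptome sequencing) in TX1072 cells, a single female mouse embryonic stem cell line (labelled WT) that carries one X chromosome from Mus musculus castaneus (Cast) and one from C57BL/6 (B6). In all samples the Xist promoter on the B6 X chromosome was replaced by one that doxycycline (DOX) switches on, and cells were kept with LIF and 2 kinase inhibitors (2i) that hold them in the naive state. DOX at 1 µg/ml was added 24 h after plating, and RNA was tagged with 0.5 mM 4-thiouridine during the last 5 min of 0, 4, 8, 12 or 24 h of DOX, with 2 replicates at each of the 5 times. The labels do not say whether replicates were separate cultures, while the paper describes its gene silencing heatmap as averages of biological duplicates. P-values measure only the spread between these libraries. No cells without inducible Xist received DOX, so that Xist, DOX and time in culture cannot be told apart.

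The 10 libraries held 18809046 to 22274929 gene-assigned read pairs, of which 49.2% to 52.8% were assigned to an allele. Xist rose from 1.42 to 1.48 CPM (counts scaled to the library total) at 0 h to 334 to 439 CPM at 4 h and lay between 415 and 669 CPM from 8 h on. Of 8 stem cell markers, 7 had reads and summed to 2718 to 3076 CPM in every library. Sox2 was at 0 in every library, and its listed span lies inside that of Sox2ot on the same strand. Summed markers of primitive endoderm (2.76 to 4.07 CPM) and fibroblasts (2.97 to 5.90 CPM) were low, and those of primed or differentiating cells went from 16.2 to 18.3 CPM at 0 h to 12.2 to 12.6 CPM at 24 h. The part of these shifts in the results below was not tested. The 0 h replicates differed more from each other than those of the later times (chi-square per degree of freedom over genes of 11.5, against 5.37 to 6.14).

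The genes are spread along the X chromosome (mm10). Nono (101429651 to 101448593, plus strand) lies closest to Xist, at 2.03 Mb, followed by Hnrnph2 (134601179 to 134607057, plus strand) at 31.1 Mb and Rbmx (57383348 to 57393036, minus strand) at 46.1 Mb. Thoc2 (41794994 to 41911901, minus strand) lies at 61.6 Mb and Upf3b (37091678 to 37110322, minus strand) at 66.4 Mb. Rbm10 (20617503 to 20650905, plus strand) lies at 82.8 Mb and Rbm3 (8138975 to 8145880, minus strand) at 95.3 Mb. All are protein-coding in GENCODE. Reads were counted over the whole span, introns included, and exons make up from 10.6% of the span in Thoc2, the longest at 116.9 kb, to 74.3% in Hnrnph2, the shortest at 5.88 kb.

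The start regions of 4 of these genes are shown because they belong to the members with the largest falls of the B6 to Cast ratio at 24 h (Rbmx and Nono) and the smallest (Upf3b and Rbm10). Each runs from 250 bases before to 50 bases after the RefSeq start site, which in all 6 genes found in the RefSeq table was the first base of the deposited gene. They were read 5′ to 3′ on the strand of the gene from GRCm38.p6 at chrX:57392987-57393286 (Rbmx, minus), chrX:101429401-101429700 (Nono, plus), chrX:37110273-37110572 (Upf3b, minus) and chrX:20617253-20617552 (Rbm10, plus). Capitals mark matches, on either strand, to the GC box GGGCGG, the CCAAT box CCAAT, the YY1 letters CCATNTT and the TATA box TATAAA.
Rbmx: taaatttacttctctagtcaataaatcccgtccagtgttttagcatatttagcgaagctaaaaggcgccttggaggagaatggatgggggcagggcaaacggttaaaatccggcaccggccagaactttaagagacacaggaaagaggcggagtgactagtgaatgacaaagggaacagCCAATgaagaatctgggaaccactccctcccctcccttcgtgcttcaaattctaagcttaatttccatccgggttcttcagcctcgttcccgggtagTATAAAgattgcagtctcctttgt
Nono: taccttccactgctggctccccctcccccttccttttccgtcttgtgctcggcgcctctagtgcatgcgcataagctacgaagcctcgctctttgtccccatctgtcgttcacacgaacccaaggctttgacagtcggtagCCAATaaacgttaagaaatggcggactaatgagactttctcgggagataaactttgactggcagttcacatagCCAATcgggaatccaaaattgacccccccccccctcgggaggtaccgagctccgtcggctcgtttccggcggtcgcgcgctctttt
Upf3b: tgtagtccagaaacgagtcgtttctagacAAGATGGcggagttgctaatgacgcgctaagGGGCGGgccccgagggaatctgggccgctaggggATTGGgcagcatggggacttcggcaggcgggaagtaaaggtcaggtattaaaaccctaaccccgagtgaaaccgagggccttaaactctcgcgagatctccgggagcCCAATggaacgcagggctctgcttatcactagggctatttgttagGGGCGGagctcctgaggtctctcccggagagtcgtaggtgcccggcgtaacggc
Rbm10: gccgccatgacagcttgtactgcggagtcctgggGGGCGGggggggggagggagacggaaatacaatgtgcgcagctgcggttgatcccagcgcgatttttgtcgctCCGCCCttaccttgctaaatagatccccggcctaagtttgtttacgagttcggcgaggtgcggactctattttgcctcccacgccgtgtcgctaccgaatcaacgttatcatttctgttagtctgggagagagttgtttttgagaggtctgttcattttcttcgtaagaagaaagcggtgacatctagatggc
The Rbmx region held 1 CCAAT box, no GC box and 1 match to TATAAA. That match lies within the 50 bases after the start site, so inside the transcript and not before it. That of Nono held 2 CCAAT boxes and no GC box, that of Upf3b 2 GC boxes, 2 CCAAT boxes and 1 YY1 match, and that of Rbm10 only 2 GC boxes among the 6 motifs searched. Of 32851 RefSeq regions of the same length, 35.7% held a GC box, 37.4% a CCAAT box, 16.1% the YY1 letters and 13.6% TATAAA, at any position. The other 2 motifs, the ETS letters CGGAAG (16.9% of regions) and the NRF1 site (0.971%), matched in none of these 4. CpG dinucleotides numbered 11 in Rbmx, 23 in Nono, 22 in Upf3b and 22 in Rbm10, against a median of 7 over all regions. These matches describe the letters only, and no relation between them and the changes below was tested.

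Rbm3 could not be measured. It was listed at 0 reads in all 10 libraries. The deposited tables give Btbd35f15 a span of 29.8 Mb (X, 3750926 to 33577346, minus strand), which GENCODE places within 1.92 kb at the end of that stretch, and Rbm3 lies inside it on the same strand. All 82 minus-strand genes inside the span were at 0 in every library, against 31 of 101 plus-strand genes inside it and 78 of 421 minus-strand genes outside it. The options given for the read counter do not include counting pairs that overlap more than one gene. A count of 0 for Rbm3 therefore says nothing about its transcription, and no comparison below includes it. Rbm10 lies on the opposite strand to that span, and reads were counted by strand.

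At 0 h, Nono was the most strongly transcribed of the 6 measured genes. Its nascent level was 14.9 and 15.8 CPM per kb of gene span in the 2 libraries, higher than 96.8% of the 502 X-linked genes tested. Hnrnph2 followed with 9.49 and 9.70 CPM per kb and Rbmx with 7.23 and 8.27 CPM per kb. Thoc2 had 3.62 and 4.27 CPM per kb, Rbm10 3.77 and 3.79 CPM per kb, and Upf3b 3.32 and 3.34 CPM per kb. The ranges of Thoc2 and Rbm10 overlapped, while all other neighbours in this order were apart in both libraries. Even Upf3b, the lowest, lay above 77.1% of the X-linked genes. Rbmx and Hnrnph2 have close autosomal relatives (Rbmxl1 and Hnrnph1), and only uniquely aligned reads were kept, so reads from stretches they share could be missing from their counts.

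Total nascent transcription, from both alleles together, was lower in all 6 measured genes after 24 h of DOX (edgeR quasi-likelihood test, Benjamini-Hochberg adjusted over all 14525 genes tested). The largest fall was that of Rbmx, by 41.8%, and the smallest that of Rbm10, by 18.6%. None of the 6 passed the test at 4 h, 2 did at 8 h, 3 at 12 h and 6 at 24 h, all of them lower. Of all 502 X-linked genes tested (Xist left out), 0% were called lower after 4 h, 5.38% after 8 h, 22.5% after 12 h and 38% after 24 h. With the replicate number as a block these shares were 0.199%, 20.7%, 55.4% and 61.4%, and the members called numbered 0, 3, 4 and 6. The larger share called among the members does not mean a larger fall. In the main fit the median log2 change at 24 h was -0.39 over the 6 genes and -0.50 over the 502 X-linked genes. At 4 h, 2 of the 6 genes were lower at an unadjusted p under 0.05 in edgeR, as were 34 of the 502 X-linked genes. In DESeq2, 0 of the 6 had an adjusted p under 0.05 at that time. In these bulk samples, fewer transcribing cells and less RNA made per cell cannot be told apart.

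**Figure D1:**
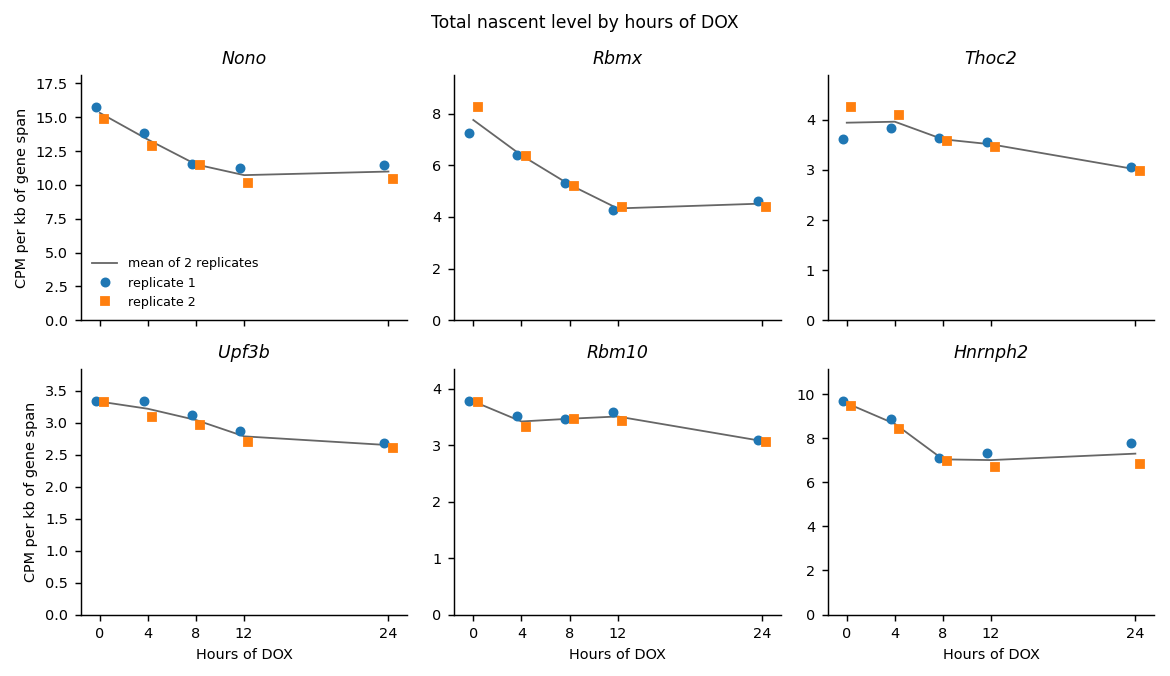
Total nascent level of the 6 measured genes (CPM per kb of gene span, each panel with its own axis from 0) against hours of DOX, with circles for replicate 1, squares for replicate 2 and a line through their mean. Rbmx went from 7.23 and 8.27 CPM per kb at 0 h to 4.63 and 4.40 at 24 h. In every panel both 24 h libraries lie below both 0 h libraries, which was not counted over the other X-linked genes. At 24 h, 361 of 502 X-linked genes were lower at an unadjusted p under 0.05 in edgeR.

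Rbmx, whose product binds nascent transcripts and helps set splice sites, had the largest change in total. Its level in replicates 1 and 2 was 7.23 and 8.27 CPM per kb before DOX, 6.39 and 6.37 after 4 h, 5.32 and 5.18 after 8 h, 4.26 and 4.40 after 12 h, and 4.63 and 4.40 after 24 h. Every later library was below both 0 h libraries, and the 12 h and 24 h ranges overlapped. Its log2 change in edgeR reached -0.56 after 8 h, with an adjusted p = 0.0102. It reached -0.84 after 12 h (adjusted p = 9.8e-05), and was -0.78 ± 0.083 (SE) after 24 h with an adjusted p = 9.5e-05.

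Nono, the paraspeckle gene near Xist, also passed the test from 8 h on. Its level in replicates 1 and 2 was 15.8 and 14.9 CPM per kb before DOX, 13.8 and 12.9 after 4 h, 11.6 and 11.5 after 8 h, 11.3 and 10.2 after 12 h, and 11.5 and 10.5 after 24 h. All later libraries lay below both 0 h libraries, and the 24 h range overlapped those of 8 and 12 h, while both 12 h libraries lay below both 8 h libraries. In edgeR the log2 change was -0.41 after 8 h with an adjusted p = 0.0466, a call that was lost in 8 of 10 fits with one library left out and held only without either 4 h library. After 12 h it was -0.52 (adjusted p = 0.0028), and after 24 h -0.48 ± 0.078 (SE) with an adjusted p = 0.0026.

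Hnrnph2, a splicing regulator, went from 9.70 and 9.49 CPM per kb before DOX to 7.10 and 6.99 after 8 h, 7.31 and 6.71 after 12 h and 7.80 and 6.81 after 24 h. It passed the edgeR test at 12 h (log2 change -0.45, adjusted p = 0.0203) and 24 h (-0.39, adjusted p = 0.0292) but not at 8 h (-0.45, adjusted p = 0.0596). With the replicate number as a block it also passed at 8 h (adjusted p = 3.7e-04), which makes 3 genes at that time.

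Thoc2, the THO scaffold, passed the test at 24 h only. Its level in replicates 1 and 2 was 3.62 and 4.27 CPM per kb before DOX, 3.84 and 4.09 after 4 h and 3.05 and 2.98 after 24 h. The 4 h libraries lay within the 0 h range, and the 24 h libraries were below it (log2 change -0.39, edgeR adjusted p = 0.0182). Its change at 12 h was -0.17 with a 95% interval from -0.34 to 0.00.

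Upf3b, the nonsense-mediated decay factor, went from 3.34 and 3.32 CPM per kb at 0 h to 2.69 and 2.61 at 24 h (log2 change -0.33, edgeR adjusted p = 0.0438). With the replicate block it passed at 12 h too (-0.26, adjusted p = 0.0290, against 0.189 without the block), giving 4 genes at that time. Rbm10, a regulator of exon skipping, went from 3.79 and 3.77 to 3.10 and 3.06 CPM per kb (-0.30, edgeR adjusted p = 0.0396), with its 4, 8 and 12 h libraries all between 3.33 and 3.59 CPM per kb.

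How many genes passed depended on single libraries. With any one library left out, the number called lower at 24 h in edgeR lay between 1 and 6. It was 1 without 24 h replicate 2, 2 without 0 h replicate 2, 3 without 0 h replicate 1 or 24 h replicate 1, 4 without any 8 h or 12 h library, and 6 without either 4 h library. Rbmx was called in all 10 of these fits, Nono in 9, Hnrnph2 and Thoc2 in 7 each, and Upf3b and Rbm10 in 2 each. At 8 h the number lay between 0 (without 0 h replicate 2 or either 8 h library) and 2, and at 12 h between 1 (without 12 h replicate 2) and 3, with 2 without 0 h replicate 1 or 12 h replicate 1.

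The allele on which Xist was induced lost share in 4 of the 5 genes that could be tested. Allelic share was measured as the d-score, the number of B6 reads divided by the sum of B6 and Cast reads, so that 0.5 means equal output of both alleles. The B6 to Cast ratio of Nono, Rbmx and Thoc2 was lower than at 0 h from 8 h on, and that of Rbm10 from 12 h on. Upf3b did not pass at any time. This makes 0, 3, 4 and 4 of 5 genes at 4, 8, 12 and 24 h, while the share of all 362 X-linked genes tested that was called lower was 11.3%, 52.8%, 65.5% and 75.1%. At 4 h, 3 of the 5 genes were lower at an unadjusted p under 0.05 in edgeR, as were 117 of the 362 X-linked genes. In DESeq2, 0 of the 5 had an adjusted p under 0.05 at that time.

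**Figure D2:**
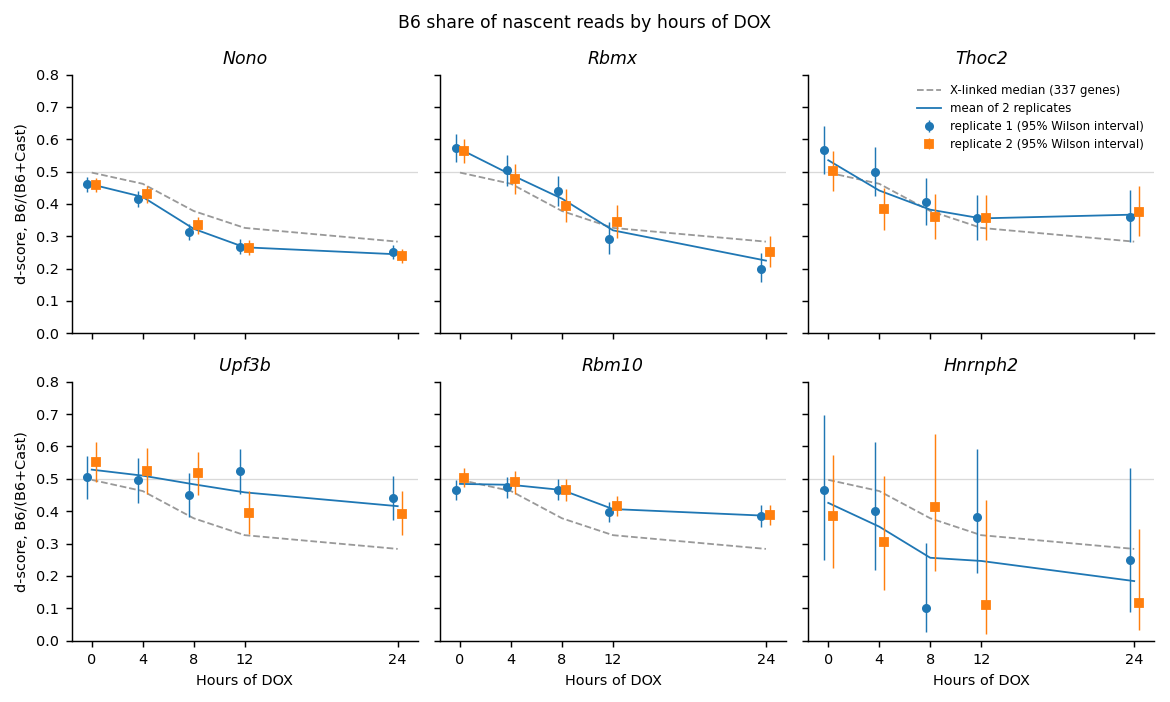
The d-score, B6 reads divided by B6 plus Cast reads, of 6 genes against hours of DOX, with circles for replicate 1, squares for replicate 2, bars for the 95% Wilson interval of each library, a solid line through the mean and a dashed line for the median of 337 X-linked genes. Nono and Rbmx end below the dashed line (0.283 at 24 h) and Thoc2, Rbm10 and Upf3b above it, while the intervals of Hnrnph2 are wide.

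The d-score of Nono in replicates 1 and 2 was 0.461 and 0.459 before DOX, 0.414 and 0.429 after 4 h, 0.313 and 0.333 after 8 h, 0.267 and 0.265 after 12 h, and 0.250 and 0.238 after 24 h. These values rest on 1320 to 2026 allelic reads a library, and the ranges of successive times did not overlap. On the log2 scale the B6 to Cast ratio stood at -0.84 relative to 0 h after 8 h, with an edgeR adjusted p = 2.2e-15. After 12 h it stood at -1.23 (adjusted p = 8.2e-26), and after 24 h at -1.40 ± 0.085 (SE) with an adjusted p = 1.8e-30.

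Rbmx started above Nono, and the ranges of both genes overlapped at 24 h. Its d-score in replicates 1 and 2 was 0.574 and 0.565 before DOX, 0.504 and 0.477 after 4 h, 0.439 and 0.393 after 8 h, 0.292 and 0.344 after 12 h, and 0.199 and 0.250 after 24 h. On 301 to 676 allelic reads a library, no range overlapped that of the next time. Its ratio stood at -0.88 in log2 after 8 h, with an edgeR adjusted p = 4.8e-06. It came to -1.49 after 12 h (adjusted p = 1.2e-13) and to -2.18 ± 0.169 (SE) after 24 h with an adjusted p = 2.6e-22, so that by 24 h the ratio fell by 77.9%.

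Thoc2 has few allelic reads for its size, since 2.05% of its reads were assigned to an allele, against a median of 44.2% over 385 X-linked genes with at least 500 reads. Its d-score in replicates 1 and 2 was 0.568 and 0.502 before DOX, 0.500 and 0.383 after 4 h, 0.406 and 0.359 after 8 h, 0.355 and 0.355 after 12 h, and 0.359 and 0.375 after 24 h. Both 8, 12 and 24 h libraries were below both 0 h libraries, and the later ones lay close together. The log2 change of the ratio at 24 h was -0.96 (SE 0.246, edgeR adjusted p = 0.0076). This call was lost without 0 h replicate 1, without either 24 h library and in DESeq2 (log2 change -0.98, adjusted p = 0.413). The 8 h call (-0.87, edgeR adjusted p = 0.0160) was lost without 0 h replicate 1, without 8 h replicate 2 and in DESeq2 (adjusted p = 0.857). The 12 h call was lost without 0 h replicate 1 and in DESeq2 (adjusted p = 0.221). For the 24 h change, over the fits without one library the value lay between -1.18 and -0.80.

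Rbm10 passed the test from 12 h on. Its d-score in replicates 1 and 2 was 0.466 and 0.503 before DOX, 0.474 and 0.489 after 4 h, 0.467 and 0.464 after 8 h, 0.397 and 0.416 after 12 h, and 0.384 and 0.388 after 24 h. The 4 h and 8 h ranges each overlapped that of 0 h, and the 12 and 24 h libraries lay below all of these. The log2 change of the ratio was -0.12 at 8 h (95% interval -0.32 to 0.09), then -0.46 after 12 h with an edgeR adjusted p = 0.0014, and finally -0.59 ± 0.108 (SE) after 24 h with an adjusted p = 1.8e-05. The 12 h call was lost without 0 h replicate 2, without 12 h replicate 1 and in DESeq2 (log2 change -0.46, adjusted p = 0.219).

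Upf3b went from 0.505 and 0.552 before DOX to 0.523 and 0.393 after 12 h and 0.439 and 0.392 after 24 h. The replicates at 12 h were far apart, and both 24 h libraries lay below both at 0 h. The log2 change of the ratio at 24 h was -0.66 with a 95% interval from -1.10 to -0.23, an unadjusted p = 0.0032 and an adjusted p = 0.109 in edgeR. On 183 to 250 allelic reads a library, a fall of the size seen in Rbm10 lies within that interval, as does one of 1 log2 unit.

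Hnrnph2 had 9 to 26 allelic reads a library, with 9 in 12 h replicate 2, and was therefore outside the main test. Pooled over replicates, 17 of 41 allelic reads at 0 h and 5 of 29 at 24 h came from B6, shares of 0.415 (95% Wilson interval 0.278 to 0.566) and 0.172 (0.0760 to 0.346). The minimum of 10 allelic reads was lowered to 5 after the data had been seen, and in that fit the log2 change of the ratio at 24 h was -1.72 (95% interval -3.42 to -0.0086), with an unadjusted p = 0.0489 and an edgeR adjusted p = 0.623. The change did not pass the adjusted test at this depth. The Wilson intervals cover counting error only, and reads without molecular identifiers are not independent molecules. The interval of the edgeR fit also takes in the spread between libraries.

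Successive times were compared in the same fit. Between 4 and 8 h the B6 to Cast ratio fell in Nono (log2 change -0.61, edgeR adjusted p = 3.2e-08), 1 of 5 genes called, against 37.6% of the X-linked genes. Between 8 and 12 h it fell again in Nono (-0.39, adjusted p = 0.0114), while Rbmx at -0.61 (adjusted p = 0.116) and Rbm10 at -0.35 (adjusted p = 0.212) did not pass, against 13.8% of the X-linked genes called. That call was lost without either 12 h library and without 8 h replicate 2. Between 12 and 24 h, 0 of 5 genes passed in edgeR, with 6.91% of the X-linked genes called lower. At an unadjusted p under 0.05 in edgeR, 119 of 362 X-linked genes were lower, and 1 of the 5 genes. That gene was Rbmx at -0.69 (adjusted p = 0.144), and the change of Nono over the same interval was -0.17 (95% interval -0.35 to 0.02).

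Speed was described by the IC35, the time at which a sigmoid through the d-score, scaled to 0.5 at 0 h in each replicate, reaches 0.35. Nono reached this level at 7.90 h (7.37 and 8.38 h in replicates 1 and 2 alone), Rbmx at 8.17 h (8.44 and 8.10 h) and Thoc2 at 8.63 h. Thoc2 reached it at 8.08 h in replicate 1 alone and not within 24 h in replicate 2 alone. Rbm10 and Upf3b did not reach it within 24 h. Thus 3 of 5 genes reached the level, and the 2 with stable values, Nono and Rbmx, were not separable from each other. Among 330 X-linked genes with a usable curve, 248 (75.2%) reached it. The median over all 330 was 9.72 h, with genes that did not reach the level set to 24 h. At a level of 0.40 all 5 genes had a time, which was 6.03 h for Nono, 5.70 h for Rbmx, 4.39 h for Thoc2, 18.5 h for Rbm10 and 22.0 h for Upf3b. At a level of 0.30 only 2 of the 5 had one, Nono and Rbmx, both at 11.2 h.

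At 24 h the scaled d-score was 0.198 ± 0.034 in Rbmx, 0.265 ± 0.009 in Nono, 0.345 ± 0.041 in Thoc2, 0.395 ± 0.057 in Upf3b and 0.399 ± 0.019 in Rbm10 (SD, n = 2). The replicates of Rbmx and Nono did not overlap, nor did those of Nono and Thoc2, while Thoc2 and Upf3b, and Upf3b and Rbm10, overlapped. The median of 337 X-linked genes on this scale was 0.296. Of these, 18.1% lay below Rbmx, 37.4% below Nono, 72.4% below Thoc2, 86.4% below Upf3b and 87.2% below Rbm10.

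**Figure D3:**
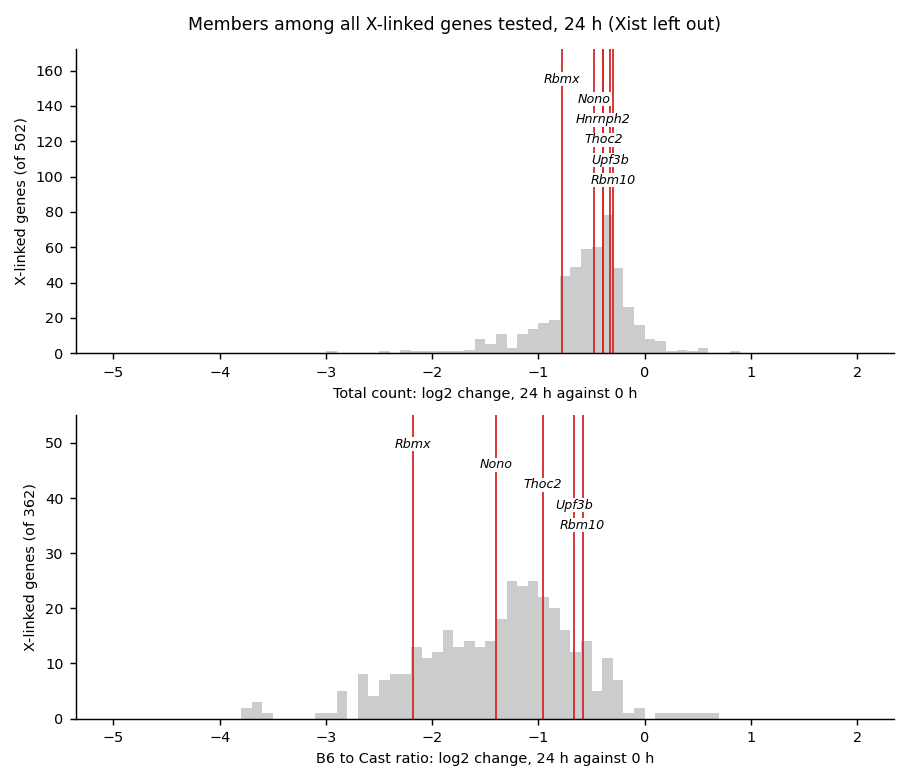
Number of X-linked genes (Xist left out) by log2 change at 24 h against 0 h in bins of 0.1, for total counts of 502 genes (top) and for the B6 to Cast ratio of 362 genes (bottom), with red lines at the members. In the lower panel the members run from Rbmx at -2.18 to Rbm10 at -0.59, and in the upper panel from Rbmx at -0.78 to Rbm10 at -0.30.

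Beside the rest of the chromosome, Rbmx was thus among the genes that fell further and Rbm10 and Upf3b among those that fell less. When 362 X-linked genes are ranked by how far their B6 to Cast ratio moved in 24 h, 13.5% had a lower log2 change than Rbmx, 42.3% than Nono, 71.0% than Thoc2, 85.9% than Upf3b and 88.1% than Rbm10. For total counts, 21.3% of 502 genes had a lower change than Rbmx, 52.2% than Nono, 63.0% than Hnrnph2, 63.7% than Thoc2, 73.5% than Upf3b and 77.5% than Rbm10. Among the 5 genes, Nono and Rbmx, with the largest falls of the ratio, were also the nearest to Xist. Hnrnph2, outside the main test of the ratio, lies nearer to Xist (31.1 Mb) than Rbmx (46.1 Mb). Its total log2 change was -0.39, against -0.78 for Rbmx. The 5 genes lie on one chromosome, and their order is given as a description.

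The genes with the most similar time course were sought among 219 X-linked genes that never had fewer than 100 allelic reads, by the root mean square difference of the scaled d-score over the 8 libraries after 0 h. Nono was closest to Fam120c (difference 0.0088) and Rps6ka6 (0.0095). Rbmx was closest to Flna (0.0206). For Thoc2 the closest were Chic1 (0.0299) and Vbp1 (0.0303), for Upf3b Zfp275 (0.0334) and Tspan7 (0.0413), and for Rbm10 the mis-sized span named Btbd35f15 (0.0180) and Shroom4 (0.0184). Differences of Thoc2 and Upf3b to their closest gene were larger than those of Nono, and their libraries hold fewer allelic reads.

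Counts of each allele alone were tested as well, and no change of Cast reads against 0 h passed the test. B6 reads were lower than at 0 h in 0, 2, 3 and 4 of 5 genes at 4, 8, 12 and 24 h, against 0.548%, 45.8%, 66.3% and 75.6% of the X-linked genes tested. Cast reads differed from 0 h in 0 of 6 genes at any time in edgeR, adjusted or unadjusted. Between 12 and 24 h, those of Thoc2 had an unadjusted p = 0.0429 (log2 change -0.45, edgeR adjusted p = 0.602). Of all 378 X-linked genes tested, the share with a change in Cast reads against 0 h was 0%, 0%, 0.265% and 0.794% at 4, 8, 12 and 24 h. At an unadjusted p under 0.05 in edgeR they numbered 12, 18, 41 and 46.

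**Figure D4:**
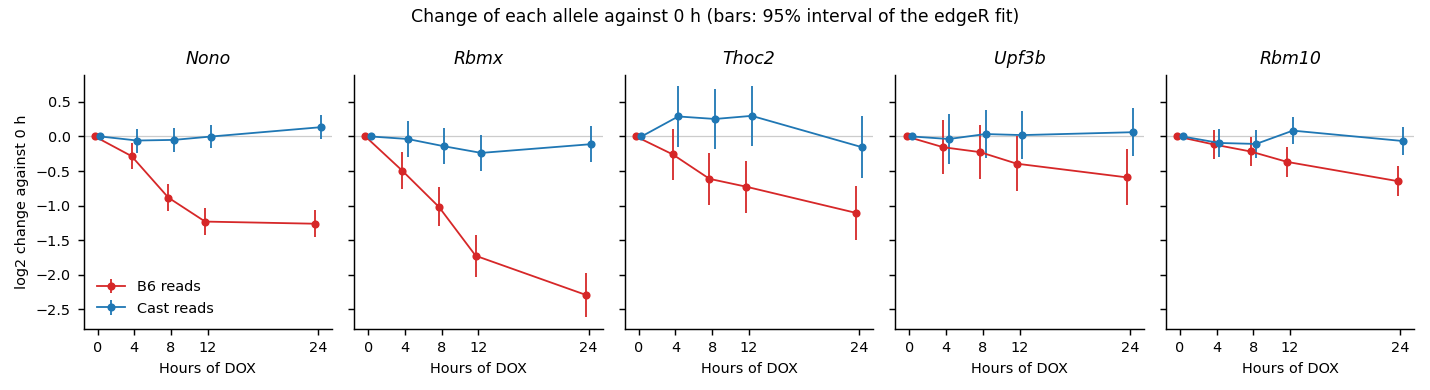
Log2 change against 0 h of B6 reads (red) and Cast reads (blue) in 5 genes by hours of DOX, with bars for the 95% interval of the edgeR fit on 2 libraries a time. The B6 line of Rbmx descends to -2.29 and that of Nono to -1.26, while every Cast interval includes 0.

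For Nono, B6 reads went from 810 and 930 at 0 h in replicates 1 and 2 to 361 and 363 at 24 h, while Cast reads went from 946 and 1096 to 1081 and 1163. The log2 change at 24 h, after scaling for depth, was -1.26 on B6 (SE 0.094, edgeR adjusted p = 1.1e-09) and 0.13 on Cast (95% interval -0.04 to 0.31). For Rbmx, B6 reads went from 304 and 382 to 60 and 80, and Cast reads from 226 and 294 to 241 and 240. Its log2 change at 24 h was -2.29 on B6 (SE 0.154, edgeR adjusted p = 2.4e-10) and -0.11 on Cast (95% interval -0.37 to 0.15).

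At 24 h the log2 change of B6 reads was -1.11 in Thoc2 (95% interval -1.50 to -0.71, edgeR adjusted p = 4.2e-04), -0.64 in Rbm10 (adjusted p = 2.0e-04) and -0.59 in Upf3b (adjusted p = 0.164). With the replicate number as a block Upf3b passed (-0.60, edgeR adjusted p = 0.0350), so its call depends on that choice. Cast changes at 24 h were -0.15 in Thoc2, -0.07 in Rbm10 and 0.06 in Upf3b, and the widest interval among these was that of Thoc2, from -0.60 to 0.29. The count of Cast reads in Hnrnph2 went from 8 and 16 at 0 h to 9 and 15 at 24 h. At 12 h, the number of genes with lower B6 reads was 2 without 0 h replicate 2 or either 12 h library and 4 without 0 h replicate 1.

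For a gene whose Cast output stays constant, the d-score alone fixes how far the total should go down. At 24 h the total change computed in this way lay within the 95% interval of the observed one in all 5 genes. It was -0.49 against an observed -0.48 for Nono, -0.85 against -0.78 for Rbmx, -0.45 against -0.39 for Thoc2, -0.31 against -0.33 for Upf3b and -0.25 against -0.30 for Rbm10. Earlier, Thoc2 lay outside at 4, 8 and 12 h, with a smaller observed fall than computed (at 12 h -0.17 observed, 95% interval -0.34 to 0.00, and -0.48 ± 0.15 computed, SD, n = 2). Cast reads of Thoc2 stood at 0.30 in log2 above 0 h at that time (95% interval -0.13 to 0.73). Rbmx lay just outside at 12 h, with -0.84 observed (95% interval -1.02 to -0.66) and -0.66 computed. The totals include the allelic reads behind the d-score, so the observed and computed changes are not independent. These intervals also leave out the spread of the computed values, with an SD of 0.17 in Thoc2 and 0.19 in Upf3b at 24 h.

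**Figure D5:**
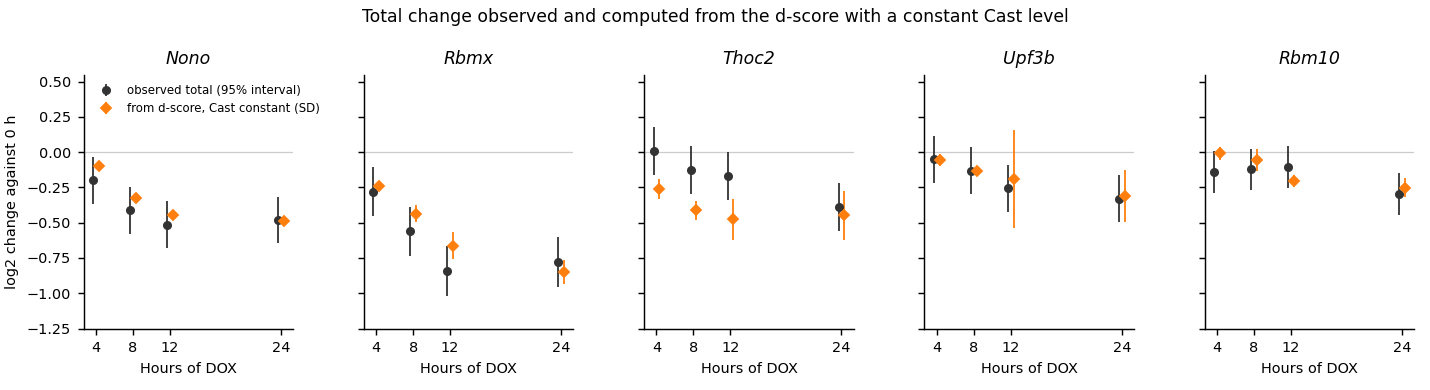
Log2 change of total counts against 0 h as observed (black circles, 95% interval of the edgeR fit) and as computed from the d-score with a constant Cast level (orange diamonds, SD of 2 replicates), for 5 genes at 4, 8, 12 and 24 h of DOX. The pairs nearly coincide at 24 h, as in Nono with -0.48 observed and -0.49 computed, and stand apart in Thoc2 from 4 to 12 h.

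The partners and autosomal relatives of these proteins showed no change that passed the test. Of 37 such genes (partners of NONO and RBMX, THO and export factors, hnRNP H and F relatives, decay factors, and relatives of RBM3 and RBM10), 0 changed in total at 24 h in edgeR, with 0 lower and 1 higher at an unadjusted p under 0.05 and 0 called by DESeq2. Of all 14019 autosomal genes tested, 0.549% were called, and 1132 had an unadjusted p under 0.05 in edgeR. The log2 changes of the 37 genes ran from -0.16 to 0.25 with a median of 0.03. For the B6 to Cast ratio, 35 could be tested and 0 passed (3 higher at an unadjusted p, 0 called by DESeq2), against 0.355% of autosomal genes. Of 11543 autosomal genes tested for the ratio, 656 had an unadjusted p under 0.05 in edgeR. The closest relatives stood at a total log2 change of 0.11 for Rbmxl1, 0.12 for Hnrnph1, 0.11 for Upf3a, 0.21 for Cirbp (of Rbm3) and 0.05 for Rbm5 (of Rbm10), and the dimer partner of NONO, Sfpq, at 0.03. The widest of these 6 intervals was that of Cirbp, from -0.06 to 0.47.

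Of 25 other X-linked genes of RNA processing, 21 could be tested for totals, and 5 were lower at 24 h in edgeR, against 38% of the X-linked genes. These were Nxt2, an export cofactor (log2 change -1.02, on 51 to 128 reads a library), Rbm41 (-0.66), Akap17b (-0.63), Nkrf (-0.59) and Rbmx2 (-0.51). The count was 13 with the replicate block, against 61.4% of the X-linked genes, and 10 in DESeq2, against 46.8% of the 434 with an adjusted p. For the B6 to Cast ratio, 16 were tested and 14 were lower, against 75.1% of the X-linked genes, with a median log2 change of -0.91 over the 16. The largest fall was that of Nxt2 (-2.90) and the smallest among those called were those of Ddx3x, an RNA helicase (-0.39), and Dkc1, the pseudouridine synthase dyskerin (-0.32). DESeq2 called 8 of the 16, against 58% of the X-linked genes. The median over the 5 members tested was -0.96, and that over all 362 X-linked genes -1.27.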

How the data were processed

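Nascent RNA of TX1072 cells was profiled by TT-seq in 10 libraries. Per the study's methods, the authors trimmed reads, aligned them uniquely to an mm10 genome masked at strain polymorphisms, split them by allele and counted pairs on the longest listed span of every gene, strand by strand, with featureCounts 1.5.1. The submitters' processing notes also list TopHat2 2.1.0 and bedtools, without a role. The deposited tables hold raw counts (total, B6 and Cast) and the allelic fraction B6/(B6+Cast), which equals the ratio of the deposited counts wherever at least 10 allelic reads were present.

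Totals, B6 counts and Cast counts were each fitted over all genes with edgeR 4.0.16 (filterByExpr, TMM factors from 0.970 to 1.036, quasi-likelihood tests, R 4.3.3), with time as a factor over all 10 libraries. The B6 to Cast ratio was fitted on both allele counts of each library, with library intercepts and an allele by time term, keeping genes with a minimum of 10 allelic reads per library. P-values were two-sided and adjusted by Benjamini-Hochberg over all genes tested, with a threshold of 0.05. Levels are CPM after TMM. With 2 against 2 libraries no exact test can pass 0.05. DESeq2 1.42.0, a replicate block, other filters and scalings, and each library left out were tried.

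Same-numbered libraries deviated together in totals (mean correlation of deviations 0.214, 10 of 10 pairs of times over 0.1). This pairing comes from the data and not from the labels. The main fits leave it out. Calls and adjusted p-values for totals, also with one library left out, are therefore unpaired unless the replicate block is named. For the B6 to Cast ratio the mean correlation was 0.017 (0 of 10 pairs over 0.1). It was 0.142 for B6 counts and 0.147 for Cast counts (9 of 10 pairs each). The main fits of these leave the replicate number out too, and calls that moved with the block are given at the end.

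The genes named were the 7 members, Xist, list genes that passed the test or were closest relatives, and the 2 closest time courses of each member, of which 1 is not reported here. Members and lists were chosen with earlier results of these data known. Start regions are from RefSeq, and 6 of 7 members were found there.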

Additional observations from a re-analysis of the deposited data

How the results depend on the processing

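The directions reported for the 24 h totals, B6 to Cast ratios and B6 reads held under all alternatives run. Depth limits Hnrnph2, Thoc2 and Upf3b most, since few of their reads span a strain difference, and 2 libraries a time limit all totals. The cause of the changes given next was not tested. X-linked genes called lower in total numbered 1 at 4 h (against 0) with the replicate block, without the filter on low counts and in DESeq2. At 8 h (27) they numbered 104 with the block, 52 without the filter and 49 in DESeq2, at 12 h (113) 278 with the block and 180 without the filter, and at 24 h (191) 308 with the block. For the B6 to Cast ratio, DESeq2 called 13 X-linked genes at 4 h (41), 124 at 8 h (191) and 2 members at 12 h (4). The block, which has no basis in the labels for allele counts, called 1 member lower in B6 reads at 4 h (0, Rbmx added), 4 at 12 h (3, Rbm10 added) and 5 at 24 h (4, Upf3b added at an adjusted p = 0.0350). In Cast reads it called none, with an unadjusted p = 0.0458 for Rbmx at 12 h. It changed no count of members for the ratio, with 3, 4 and 4 at 8, 12 and 24 h. The X-linked shares called with the block are not given for B6 reads or the ratio, so these member counts have no background beside them. In totals the block moved the X-linked share called at 24 h from 38% to 61.4%. Among the other X-linked RNA processing genes, totals gave 13 with the block and 10 in DESeq2 (5), and the ratio 8 in DESeq2 (14). At a level of 0.40, 5 members had an IC35 (3), and at 0.30, 2.

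Without one library each, members lower in total ranged from 0 to 2 at 8 h, 1 to 3 at 12 h and 1 to 6 at 24 h, and members with a lower ratio between 8 and 12 h from 0 to 1. X-linked genes lower in total ranged from 0 to 1 at 4 h, 4 to 28 at 8 h, 44 to 121 at 12 h and 106 to 196 at 24 h, and those with a lower ratio at 4 h from 22 to 41. Changes that turned sign in such fits never passed the test. In totals at 4 h they ranged from -0.097 to 0.12 for Thoc2 and from -0.11 to 0.0059 for Upf3b, and in the ratio at 4 h from -0.25 to 0.025 for Upf3b and from -0.12 to 0.089 for Rbm10. In Cast reads at 4 h they ranged from -0.060 to 0.62 for Thoc2, -0.15 to 0.093 for Rbmx and -0.16 to 0.076 for Upf3b, and at 8 h from -0.0025 to 0.59 for Thoc2 and -0.13 to 0.78 for Hnrnph2. At 12 h they ranged from -0.037 to 0.038 for Nono, -0.60 to 0.33 for Hnrnph2 and -0.17 to 0.18 for Upf3b, and at 24 h from -0.41 to 0.18 for Thoc2, -0.22 to 0.018 for Rbmx, -0.35 to 0.50 for Hnrnph2 and -0.0072 to 0.13 for Upf3b.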
